A study of Rattus norvegicus with 125 samples.

Results

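The thin ascending limb (tAL) of the rat kidney was profiled in 7 tubule libraries of this study, and all their genes were compared with the 98 tubule libraries of the other 13 segments. The members are the libraries whose label names this segment. They are hand-dissected pieces of tubule from the kidneys of adult male Sprague-Dawley rats of 200 to 250 g, kept on normal chow and given no agent other than the collagenase used to loosen the tissue. The other segments came from rats described in the same words. They were S1, S2 and S3 of the proximal tubule (n = 7 each), the short loop's thin descending limb (SDL, n = 10), the long loop's thin descending limb where it crosses the outer medulla (LDLOM, n = 9) and where it enters the inner medulla (LDLIM, n = 4), the medullary thick ascending limb (mTAL, n = 7) and its cortical stretch (cTAL, n = 7). Further along came the distal convoluted tubule (DCT, n = 8), the connecting tubule (CNT, n = 6), and the collecting duct of cortex (CCD, n = 11), outer medulla (OMCD, n = 7) and inner medulla (IMCD, n = 8). Collagenase digestion lasted 25 minutes for cortex, 50 minutes for outer medulla and 90 minutes for inner medulla. The labels do not say which libraries share a rat, so p-values measure only the spread between these libraries.

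The thin ascending limb carries fluid upward from the bend of the long loop of Henle. Its flat cells are nearly impermeable to water and very permeable to chloride, barttin (Bsnd) is a subunit that chloride channels of the kidney need to reach the membrane, and claudins line the path between cells. It lies in the hypertonic inner medulla, where cells make and import small organic osmolytes such as sorbitol, inositol and betaine. It continues as the thick ascending limb, which takes up salt through Slc12a1 and secretes uromodulin (Umod). The descending limb before the bend is known for the water channel Aqp1.

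Levels are in RPKM, a read number corrected for transcript length and for the size of the library, which allows genes to be compared per length. Changes are differences of log2(RPKM + 1), which understate the change of low genes. A gene was called where the adjusted p was under 0.05 and the log2 change was at least 1 in size. The files hold no counts, so sequencing depth and counting error are unknown. The 7 tAL libraries had 2142 to 7933 genes at 1 RPKM or more (median 4054), against 1438 to 8574 over all tubule libraries, and their pairwise correlation across genes ran from 0.359 to 0.831 (median 0.492).

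Not all 7 libraries matched their label. Bsnd stood at 1227, 332, 993 and 676 RPKM in tAL 3, 4, 5 and 6, and at 0.782, 1.65 and 0.482 RPKM in tAL 1, 2 and 7. Cldn3 and Cldn10 split the same way, with at least 131 and 165 RPKM in tAL 3, 4, 5 and 6 and under 1 RPKM in tAL 1, 2 and 7. Cldn4, the marker assigned to this segment, stood at 2416, 222, 1188 and 3009 RPKM in tAL 3 to 6, 138 RPKM in tAL 7, and 1.2 and 3.91 RPKM in tAL 1 and 2. So 4 libraries carried all of these 4 genes, 1 carried Cldn4 without the other 3 genes, and 2 carried none of these 4 genes above 5 RPKM. The full list of 11 thin ascending limb markers split less sharply. In tAL 3 to 6, 10, 11, 11 and 10 of them were at 1 RPKM or more. In tAL 1, 2 and 7 the number was 4, 6 and 6, with sums of 11361, 2369 and 4704 RPKM.

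tAL 1 and tAL 2 held high levels of endothelial transcripts and little of the epithelial genes Epcam and Pax8. Plvap, which builds the diaphragms of fenestrated endothelium, was at 5483 and 2054 RPKM there, against 1.58 to 113 RPKM in the other 5 tAL libraries and at most 173 RPKM in the other 98 libraries. The sialomucin Emcn was at 1971 and 2505 RPKM, and the angiopoietin receptor Tek at 340 and 292 RPKM. The 16 endothelial markers summed to 9722 and 6593 RPKM in tAL 1 and 2, to 245 to 696 RPKM in tAL 3 to 7, and to at most 1887 RPKM in the 98 others. Vwf, which marks larger vessels, was at 0.00346 RPKM in tAL 1 and listed at 0 in tAL 2, and Sox17 was listed at 0 in both. The epithelial adhesion gene Epcam was at 0.344 and 1.36 RPKM in these 2 libraries, against 144 to 2732 RPKM in the other 5. Pax8, a transcription factor of tubule epithelium, showed the same gap, with 0.133 and 1.87 RPKM against 54.6 to 338 RPKM. Interstitial markers summed to at most 66.5 RPKM in any tAL library, and leukocyte markers to 0.669 to 751 RPKM, highest in tAL 7 and tAL 2.

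tAL 7, tAL 6 and tAL 4 carried the descending limb genes Aqp1 and Fst. Of the 7 descending limb markers, 4, 3 and 5 were at 1 RPKM or more in these libraries. In tAL 1, 2, 3 and 5 the number was 1 or 2. Aqp1 was at 5272 RPKM in tAL 7, 4296 RPKM in tAL 6 and 493 RPKM in tAL 4, and at 0.163 to 7.87 RPKM in tAL 1, 2, 3 and 5. The activin antagonist Fst was at 738, 180 and 216 RPKM in tAL 7, 6 and 4 and at most 0.51 RPKM in the rest. Only tAL 7 combined this with Bsnd under 1 RPKM. tAL 4 and tAL 6 held Bsnd together with Aqp1 and Fst. tAL 3 and tAL 5 were the libraries with Bsnd, Cldn3, Cldn4 and Cldn10 and little Aqp1. Values below are with all 7 libraries unless tAL 1, 2 and 7 are said to be left out, a choice made after these levels were seen. Bsnd, Cldn3 and Cldn10 were among the genes that made that choice, as were Plvap, Emcn and Tek. Cldn4 is low in 2 of the 3 libraries. The values of these genes and of the endothelial list without tAL 1, 2 and 7 are therefore a description and no test.

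**Figure D1:**
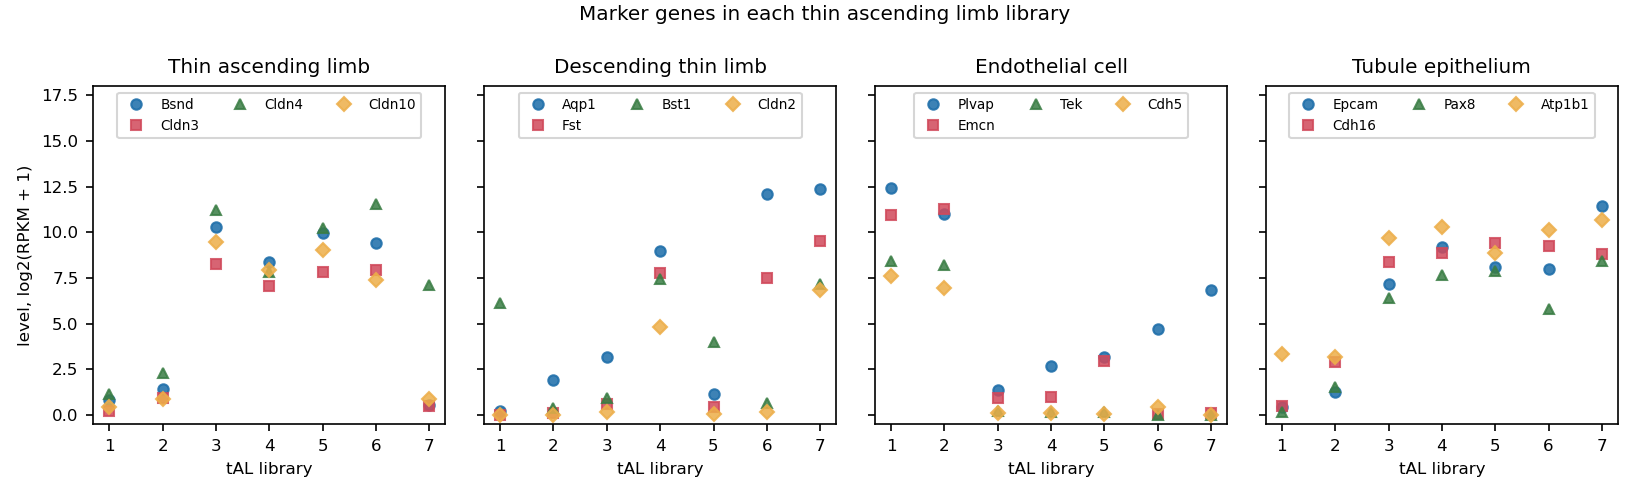
Level of marker genes, as log2(RPKM + 1) on the vertical axis, in each of the 7 thin ascending limb libraries on the horizontal axis; each point is 1 gene in 1 library, and the panels hold markers of 4 cell types. Bsnd is at 332 RPKM or more in libraries 3 to 6 and under 2 RPKM in 1, 2 and 7, Plvap is at 2054 RPKM or more in 1 and 2, and Aqp1 is at 4296 RPKM or more in 6 and 7.

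The promoter windows of 3 genes that follow the marker split or lead the differences are shown because they were high together in tAL 3, 5 and 6: Bsnd, Cldn10 and Angptl4. Each runs from 250 bases before to 50 after the RefSeq start, 5′ to 3′ on the gene's strand, in the GRCr8 assembly. The windows are at chr5:126489340-126489639 (minus strand) for Bsnd, chr15:102269608-102269907 (plus strand) for Cldn10 and chr7:15258632-15258931 (minus strand) for Angptl4. Capitals mark matches to searched motifs.
Bsnd: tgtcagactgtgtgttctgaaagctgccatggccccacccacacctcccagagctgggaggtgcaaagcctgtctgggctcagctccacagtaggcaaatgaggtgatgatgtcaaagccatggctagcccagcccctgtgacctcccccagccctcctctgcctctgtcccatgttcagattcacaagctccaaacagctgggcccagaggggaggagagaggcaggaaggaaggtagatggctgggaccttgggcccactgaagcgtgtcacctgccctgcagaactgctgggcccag
Cldn10: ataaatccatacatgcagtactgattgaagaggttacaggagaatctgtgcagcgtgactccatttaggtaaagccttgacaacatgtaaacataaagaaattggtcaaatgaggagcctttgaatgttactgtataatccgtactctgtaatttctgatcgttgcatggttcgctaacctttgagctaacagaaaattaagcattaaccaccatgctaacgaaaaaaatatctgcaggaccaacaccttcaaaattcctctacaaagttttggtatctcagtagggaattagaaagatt
Angptl4: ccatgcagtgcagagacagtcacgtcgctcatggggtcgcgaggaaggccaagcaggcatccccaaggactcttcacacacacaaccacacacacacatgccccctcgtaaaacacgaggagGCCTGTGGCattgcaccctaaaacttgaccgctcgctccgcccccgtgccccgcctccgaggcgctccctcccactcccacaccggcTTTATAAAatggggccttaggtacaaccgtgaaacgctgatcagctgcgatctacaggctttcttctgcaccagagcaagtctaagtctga

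Of 14 genes looked up, 7 had a window in the RefSeq table. Both strands were searched for 6 motifs. TATAAA, the site of the TATA-binding protein, was in 14.2% of all 33469 windows of this length, and GCCNNNGGC, the AP-2 motif, in 15.1%. The AP-1 motif TGANTCA was in 7.33%, the tonicity element's core TGGAAA in 22.7%, the E-box CACGTG in 6.42% and the cyclic AMP element TGACGTCA in 1.83%. Angptl4 held TATAAA on both strands, in overlapping positions, and 1 AP-2 match. The windows of Bsnd and Cldn10 held none of the 6. The matches are letters only.

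Against the mean of the other 13 segments, the genes higher in the thin ascending limb included Bsnd, Akr1b1, Atf3, Clu and the endothelial gene Plvap, and the lower ones Aqp2, Dcxr and Cox5b. Of 11078 genes tested, 538 were higher (4.86%) and 220 lower (1.99%), with a median change over all genes of -0.02. With tAL 1, 2 and 7 left out, 399 were higher (3.61%) and 77 lower (0.697%) of 11045 tested. The calls shared by both were 230 of the higher genes, which is 42.8% of the first list and 57.6% of the second, and 73 of the lower genes, 33.2% and 94.8%. Leaving out tAL 1 and 2 alone gave 394 higher (3.57%) and 108 lower (0.977%). Fewer cells of a type and less RNA per cell cannot be told apart in such pieces.

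Of the 11 tested thin ascending limb markers, 8 were higher and 0 lower, with a median log2 change of 3.14. Bsnd, with a median level of 332 RPKM, averaged 462 ± 511 RPKM (SD, n = 7) with a log2 change of 3.47 ± 0.80 (SE, adjusted p = 0.0015). Its next highest segment was DCT at 91.1 RPKM, and no other library passed 212 RPKM. Without tAL 1, 2 and 7 its change stood at 7.14.

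Cldn4 averaged 997 ± 1252 RPKM (SD, n = 7), the highest mean of the 14 segments, with LDLIM next at 601 RPKM. Its log2 change of 3.14 had an adjusted p of 0.019, and the call was lost without tAL 3 (adjusted p = 0.11), tAL 5 (0.099) or tAL 6 (0.12), and with the other 98 libraries as 1 group (0.15). With tAL 1, 2 and 7 left out the change was 6.01. Cldn10, whose isoforms form selective pores between cells, averaged 232 ± 276 RPKM (SD, n = 7), below the 273 RPKM of mTAL. Its change of 2.46 (adjusted p = 0.020) was lost without any 1 of tAL 3, 4, 5 and 6, at adjusted p = 0.17, 0.12, 0.17 and 0.082, and with the 98 libraries as 1 group (0.19). Cldn11 was at 14.6, 79.7 and 88.8 RPKM in tAL 3, 4 and 5 and at most 0.0823 RPKM in the other 4, with a log2 change of 2.20 (adjusted p = 1.2e-05). Cldn15, in contrast, was at 146 and 308 RPKM in the endothelial-marked tAL 1 and 2 and at most 0.117 RPKM in the other 5. Of 26 tested claudin and tight junction genes 5 were higher (Cldn4, Cldn10, Cldn11, Cldn15 and Cgnl1) and 1 lower (Cldn8), with a median change of 0.22. Of the 25 tested without tAL 1, 2 and 7, 6 were higher, among them Cldn1 and Cldn16, and 0 lower. Cldn16 was also present in mTAL, from 0.0126 to 164 RPKM.

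Of 16 tested chloride channel genes 5 were higher and 0 lower, in both sets of libraries, among them Bsnd, the endosomal exchanger Clcn5 and the calcium-activated channel Ano1. Ano1 was at 110, 20.7 and 44.9 RPKM in tAL 3, 4 and 5 and at most 0.0566 RPKM in the other 4 libraries, and its highest value in the other 98 was 11.2 RPKM. The list had a median change of 0.71. Slc4a11, a member of the bicarbonate transporter family, was at 80.8, 13.4, 188, 162, 191, 325 and 191 RPKM in tAL 1 to 7. Its log2 change was 3.71 ± 0.63 (SE, adjusted p = 1.1e-05), and all 7 libraries lay above the median of the others, 5.88 RPKM.

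Genes of the osmotic response came next. Akr1b1, aldose reductase, which makes sorbitol, had 5924, 881, 15614, 9892, 7905, 8350 and 4.67 RPKM in tAL 1 to 7, so tAL 7 stood apart from the other 6. It had the largest change among the genes named in this comparison, 5.98 ± 0.99 on the log2 scale (SE, adjusted p = 6e-06). Isyna1, which makes inositol, ran from 162 RPKM in tAL 7 to 3412 RPKM in tAL 3, with a median of 773 RPKM and a change of 5.35 (adjusted p = 6e-06). The small heat shock protein Cryab ran from 493 to 18931 RPKM, with a change of 4.54 (adjusted p = 3.5e-07). Cryab was not called with the 98 libraries as 1 group (change 4.44, adjusted p = 0.068). The betaine transporter Slc6a12 ran from 0.262 to 435 RPKM (change 3.40, adjusted p = 0.00013). Of 14 tested genes of this list, 5 were higher and 0 lower (Akr1b1, Cryab, Slc6a12, Hspb1 and Nfat5, the tonicity-responsive transcription factor), with a median of 1.08. Hspb1 was not called without tAL 1, 2 and 7 (adjusted p = 0.066), which left 4 higher and 0 lower. Against LDLIM 0 of the 14 were called in both sets of libraries. Few genes of any kind were called there, so 0 of 14 does not set the list apart. Of all genes tested, 0.117% were higher and 0.641% lower with all 7, and 0.462% and 0.407% without tAL 1, 2 and 7. The median of the list against LDLIM was -0.53 with all 7 and 0.09 without tAL 1, 2 and 7. Isyna1 is not a member of that list. The inositol transporter Slc5a3 was at 536 RPKM in tAL 3 but between 0 and 44.9 RPKM elsewhere in tAL, and was not called (adjusted p = 0.25).

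**Figure D2:**
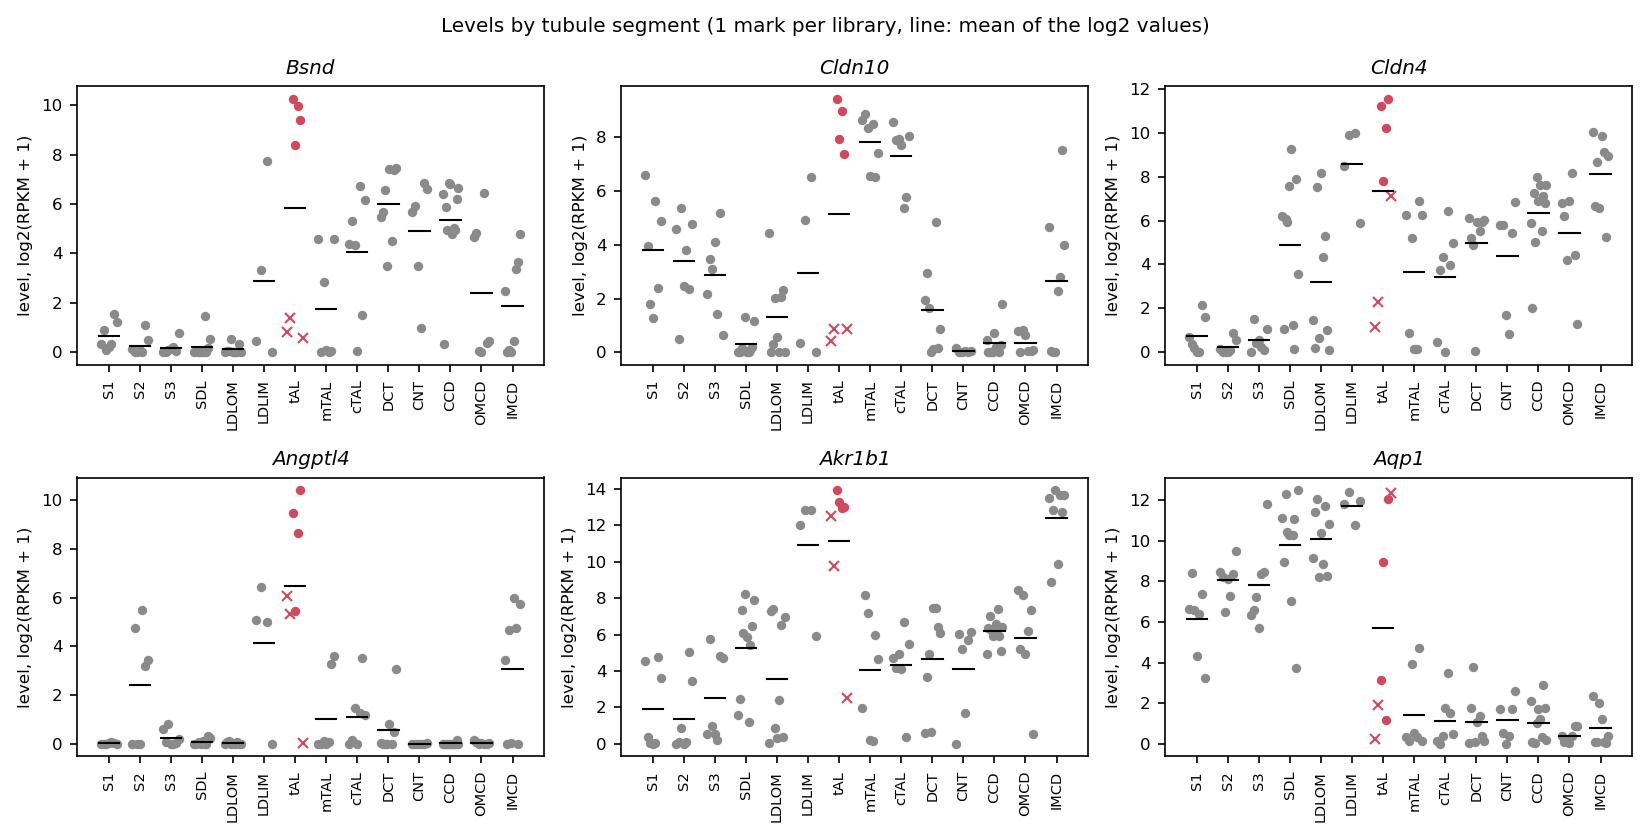
Level as log2(RPKM + 1) of 6 genes in the 14 tubule segments, with 1 mark per library and a line at the mean of the log2 values; red marks are thin ascending limb libraries, and crosses are libraries 1, 2 and 7. Bsnd and Cldn10 are high in the 4 libraries shown as dots, and Cldn10 is also high in mTAL and cTAL. Akr1b1 is also high in IMCD and, with a median of 5760 RPKM, in LDLIM. Aqp1 spreads from 0.163 to 5272 RPKM within the segment.

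Immediate early and heat shock genes formed the list with the most calls, 12 higher and 0 lower of 25 tested, with a median change of 2.33. Atf3, a stress-induced repressor, ran from 54.8 to 5568 RPKM with a median of 557 RPKM, and its change was 5.87 (adjusted p = 2.4e-05). The mRNA-decay factor Zfp36 ran from 120 to 1473 RPKM (change 4.97, adjusted p = 2.8e-05). The MAP kinase phosphatase Dusp1 averaged 220 ± 102 RPKM (SD, n = 7), from 65.7 to 364 RPKM, with a change of 4.76 (adjusted p = 4e-06). Klf4 was highest in tAL 2 at 499 RPKM and lowest in tAL 3 at 0.572 RPKM, with a change of 4.87 (adjusted p = 1.2e-09). Fos stood at 2664 RPKM in tAL 3 and 2.08 RPKM in tAL 1, and its change of 2.33 was not called (adjusted p = 0.14). Hspa1a and Hspa1b were both higher, but their transcripts are nearly identical, so reads cannot be assigned to one of them with confidence. Without tAL 1, 2 and 7, 13 of the 25 were higher and 0 lower, with a median of 3.60. The difference in digestion time between kidney zones runs along with these genes, and its part was not tested.

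Injury and chemokine genes showed 5 higher and 0 lower of 14, both with all libraries and without tAL 1, 2 and 7. Clusterin (Clu), a secreted chaperone, was in every library, from 295 to 1466 RPKM, and its change was 5.01 (adjusted p = 2.3e-05). LDLIM held as much, 527 to 1404 RPKM, all inside the tAL range, and the change against it was -0.29 ± 1.42 (SE, adjusted p = 1.0). The adhesion molecule Icam1 ran from 0.0654 to 379 RPKM (change 3.90, adjusted p = 1.2e-05). The NF-kappaB inhibitor Nfkbia ran from 7.17 to 855 RPKM (change 4.00, adjusted p = 0.00085). Cxcl10 reached 4670 RPKM in tAL 2 and 448 RPKM in tAL 6, and was 0.1 to 194 RPKM in the rest. Spp1, osteopontin, was not called (adjusted p = 0.45): it stood at 16956, 16439 and 26933 RPKM in tAL 4, 6 and 7, the 3 libraries with Aqp1 at 493 RPKM or more, and at 19.8 to 75.7 RPKM in the other 4.

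Endothelial markers were higher in 7 of 15 tested, with a median change of 1.28, and in 1 of 15 without tAL 1, 2 and 7, where the median was -0.14. Plvap went from 4.08 (adjusted p = 0.0011) to 1.04 (adjusted p = 0.82), and Tek from 2.20 (adjusted p = 0.00029) to -0.11 (adjusted p = 0.91). High levels of these markers were a reason to leave out tAL 1 and 2, so their fall without them was built in and is no test. The remaining call was Esam, a junctional adhesion gene. Esam was at 206, 443, 522, 199, 412, 668 and 38.7 RPKM in tAL 1 to 7 and at 272 RPKM in SDL, so its level did not follow Plvap. Npr1, a receptor for natriuretic peptide, and Calcrl, a receptor for adrenomedullin and calcitonin gene-related peptide, were highest in tAL 1 and 2. Npr1 was at 97.2 RPKM or more there and at most 0.0474 RPKM in the other 5 libraries.

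**Figure D3:**
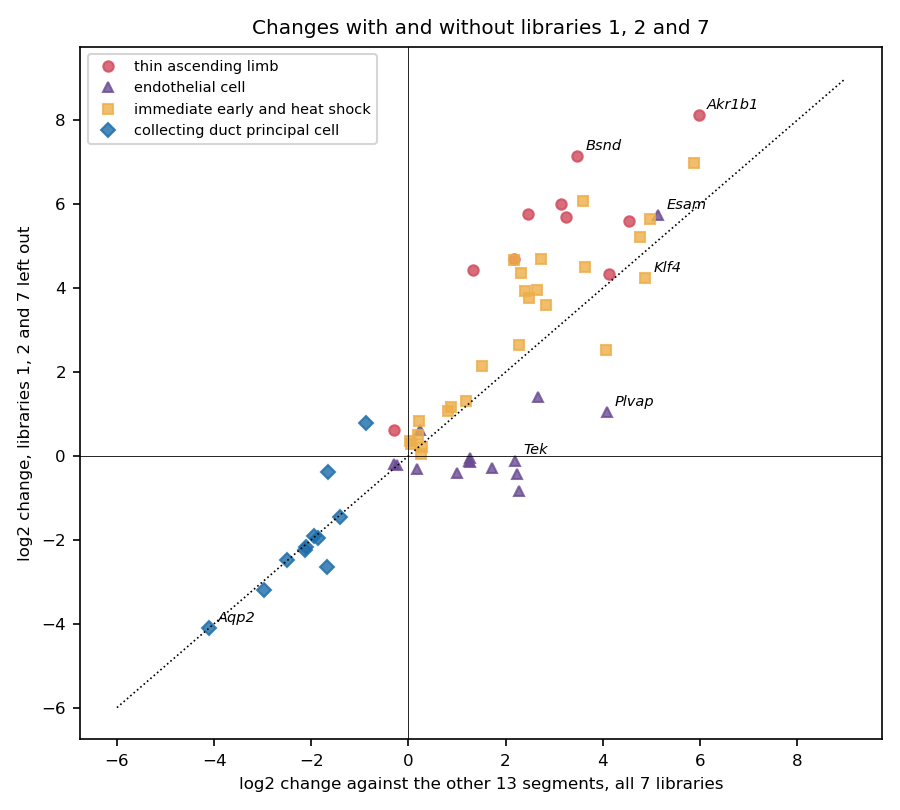
Log2 change against the mean of the other 13 segments with all 7 libraries (horizontal) and with libraries 1, 2 and 7 left out (vertical), 1 point per gene shown from 4 lists, with equality dotted. Bsnd moves from 3.47 to 7.14, Tek and Plvap fall to -0.11 and 1.04, and Aqp2 stays at -4.10.

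Among the lower genes were markers of the collecting duct and the proximal tubule. Principal cell markers were lower in 8 of 11 (median -1.95) and intercalated cell markers in 8 of 13 (median -1.85), and proximal tubule markers in 7 of 15 (median -1.67), with 0 higher in each. Aqp2, the vasopressin-regulated water channel, ranged from 0 to 23.2 RPKM in tAL, and its change was -4.10 (adjusted p = 0.00028). With the 98 libraries as 1 group Aqp2 was not called (change -4.35, adjusted p = 0.16). The androgen-regulated kidney protein gene Kap was listed at 0 in 4 of 7 libraries, at 0.0376 and 0.0618 RPKM in tAL 3 and 4, and at 5.3 RPKM in tAL 5, against 15376 RPKM in S3, and was not called with the 98 libraries as 1 group (adjusted p = 0.066). The xylulose reductase Dcxr was at most 8.76 RPKM in tAL against a median of 83.1 RPKM in the other libraries (change -4.95, adjusted p = 5e-06). Without tAL 1, 2 and 7 the lower counts fell to 2 of 11, 3 of 13 and 4 of 15, while the medians were -2.18, -1.94 and -1.70.

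Against the mean of the other 13 segments, oxidative phosphorylation genes were lower in 7 of 26 (median -1.52), with 0 higher. Without tAL 1, 2 and 7 they were lower in 4 of 26 (median -1.64), again with 0 higher. With all 7 libraries 0 of 26 were called against LDLIM (median -0.59). Against IMCD 1 was lower and 0 higher (median -0.85). Over all tested genes 0.117% were higher and 0.641% lower against LDLIM, and 1.45% and 3.75% against IMCD. The counts of this list in these 2 comparisons therefore do not set it apart from other genes. Cox5b, a subunit of cytochrome oxidase, had the lowest mean of the 14 segments, 86.1 ± 63.0 RPKM (SD, n = 7), from 3.60 to 163 RPKM, against a median of 456 RPKM in the other 98 libraries. Its change was -3.20 ± 0.49 (SE, adjusted p = 1.3e-06). Cox4i1 ran from 194 to 1104 RPKM (change -1.64, adjusted p = 0.0048). Of 17 glycolysis genes 2 were higher (Slc2a1 and Pfkfb3) and 2 lower (Pgk1 and Ldhb), with a median of -0.32, and 1 higher (Pfkfb3) and 1 lower (Pgk1) without tAL 1, 2 and 7. Atp1b1, the beta subunit of the sodium pump, was at 8.91 and 8.03 RPKM in tAL 1 and 2 and at 461 to 1644 RPKM in the other 5. Its change of -1.74 (adjusted p = 0.023) became -0.02 (adjusted p = 0.99) without tAL 1, 2 and 7. It was also not called without tAL 1 (adjusted p = 0.39), without tAL 2 (0.36) or with the 98 libraries as 1 group (0.0845).

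Among nephron transcription factors 6 of 33 were higher and 2 lower, with a median of -0.20, and 5 higher and 0 lower without tAL 1, 2 and 7, with a median of 0.16. Tfap2b was at 166, 28.7, 80.2 and 86.3 RPKM in tAL 3, 4, 5 and 6 and at most 0.22 RPKM in the other 3, so it followed Bsnd. Its change of 2.13 (adjusted p = 0.022) was lost without any 1 of tAL 3, 4, 5 and 6, at adjusted p of 0.077 to 0.18, and with the 98 libraries as 1 group (0.14). It was 4.72 without tAL 1, 2 and 7, in which Tfap2b is low. Irx2 was at 79.8, 49.4 and 59.2 RPKM in tAL 3, 4 and 5 and under 1 RPKM in the rest. The adjoining mTAL also held both genes, Tfap2b from 0.0648 to 39.3 RPKM and Irx2 from 0 to 282 RPKM. Prox1, the regulator known from lymphatic vessels, was at 16.9 and 29.8 RPKM in tAL 4 and 5 and at most 1.76 RPKM elsewhere. Esrrb was at 226 RPKM in tAL 6, 17.3 and 31.7 RPKM in tAL 4 and 5, and at most 0.309 RPKM in the rest.

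A stricter question was whether a gene was higher in the thin ascending limb than in each of the other 13 segments singly. With all 7 libraries 3 genes met this (0.0271% of those tested), among them Arc and Calcrl. Arc, an activity-induced gene known from neurons, was at 10.4, 63.9, 3.05, 0.31, 26.8, 37.4 and 0 RPKM in tAL 1 to 7 and at most 5.67 RPKM in the 98 others (smallest change 2.13, adjusted p = 0.0054). Calcrl was at 76.7 and 92.8 RPKM in tAL 1 and 2 and at most 6.96 RPKM in the other 5. Calcrl was not among the 15 genes found without tAL 1, 2 and 7.

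Those 15 genes (0.136%) included Arc, Ano1, Cldn11, Angptl4, Nrip3, Sh3gl3, Rnf182, Inhbb, Eddm3b, Prss22 and Smim5. Angptl4, an inhibitor of lipoprotein lipase, was at 66.9, 39.7, 718, 42.5, 399, 1368 and 0.0308 RPKM in tAL 1 to 7, against 37.2 RPKM in LDLIM. Nrip3 was at 676, 472, 974 and 27.6 RPKM in tAL 3 to 6 and under 1 RPKM in the other 3. Inhbb, a subunit of activin and inhibin, was at 65, 12.1 and 55.1 RPKM in tAL 3, 4 and 5 and at most 0.0723 RPKM in the rest. tAL 6 was at 0 for Ano1, Cldn11, Rnf182, Inhbb, Eddm3b and Prss22, and Prss22 was above 1 RPKM in tAL 4 and 5 only (16 and 14.9 RPKM). The count with all libraries depended on single ones: 0 without tAL 5 and 6 without tAL 7, while leaving out tAL 1 and 2 together gave 6 (0.0543%).

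LDLIM joins the thin ascending limb at the bend. With all 7 libraries 13 genes were higher (0.117%) and 71 lower (0.641%), at a median over all genes of -0.17. Limma called 0 of the 11 thin ascending limb markers, and 1, Bsnd, had an unadjusted p under 0.05. Without tAL 1, 2 and 7, 3 were higher, Bsnd and Cldn10 among them, and all 3 had helped choose those libraries. Cldn4 was at 354, 970, 1025 and 57.9 RPKM in the 4 LDLIM libraries, a range that overlapped tAL. Bsnd was at 212 RPKM in LDLIM 3, with Aqp1 at 1735 RPKM, so that library carried both genes as tAL 4 and tAL 6 did. Bsnd was at most 9.06 RPKM in the other 3 LDLIM libraries. Aqp1 was the one call among 7 descending limb markers, lower by a log2 change of -6.03 (adjusted p = 0.0026). It was not called without the endothelial-marked tAL 1 and 2 (change -4.18, adjusted p = 0.12), which left 0 calls in that list, and without tAL 1, 2 and 7 there were 2, Aqp1 and Bst1, both lower. Aqp1 in LDLIM ran from 1735 to 5284 RPKM, and tAL 6 and 7 lay inside that range. The chemokine gene Cxcl1 was at 653, 829, 465 and 81.5 RPKM in LDLIM and listed at 0 in tAL 6 and 7 (change -5.38, adjusted p = 1.9e-05), with tAL 4 and 5 inside the LDLIM range at 156 and 441 RPKM.

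Among called genes, the libraries did not overlap for 1 of 13 higher and 16 of 71 lower genes with all 7 libraries. Without tAL 1, 2 and 7 this held for 12 of 51 higher and 9 of 45 lower genes. Fewer libraries overlap less easily, and the share without overlap among all tested genes was not counted, so these counts cannot be compared. The higher one with all 7 libraries was the actin bundler Fscn1, from 0.0278 to 17.6 RPKM in tAL and listed at 0 in LDLIM (change 1.80, adjusted p = 0.011). It was not called without tAL 2 (adjusted p = 0.076), without tAL 3 (0.069) or without tAL 1, 2 and 7 (0.29). Enc1 was at 65.7, 42.0, 24.8 and 29.5 RPKM in LDLIM and at most 5.97 RPKM in tAL (change -4.47, adjusted p = 7.1e-05). The epithelial transcription factor Ehf was at 120 to 204 RPKM in LDLIM and at most 66.6 RPKM in tAL (change -4.49, adjusted p = 0.016), and was not called without tAL 1, 2 and 7 (adjusted p = 0.40), without tAL 1 (0.051), without LDLIM 1 (0.053) or without LDLIM 2 (0.062). With tAL 1, 2 and 7 left out 51 genes were higher (0.462%) and 45 lower (0.407%). In that set, which leaves out its low libraries, Tfap2b was higher by 4.65. The count of 84 became 53 without LDLIM 1, 188 without LDLIM 4 and 137 without tAL 4, and was 2 when both segments were fitted alone.

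Against mTAL, into which it continues, the thin ascending limb had 588 genes higher (5.31%) and 114 lower (1.03%), with a median over all genes of 0.51. Without tAL 1, 2 and 7 these were 518 (4.69%) and 67 (0.607%). Quantile normalization, which moved the median to -0.01, gave 386 higher and 345 lower. The number of detected genes as a covariate gave 376 higher and 162 lower at a median of 0.16. RPKM summed over all symbols ran from 129803 to 306937 in the mTAL libraries and from 356010 to 437380 in tAL. The part of this difference in the split was not tested. The salt transporter Slc12a1 ran from 178 to 457 RPKM in mTAL and from 0.14 to 36 RPKM in tAL, without overlap (change -6.18, adjusted p = 2.4e-10). Umod ran from 339 to 9269 RPKM in mTAL and from 0.421 to 16.1 RPKM in tAL (change -9.27, adjusted p = 3.2e-10). Of the 16 thick limb markers 8 were lower and 0 higher (median -2.42). Without tAL 1, 2 and 7 there were 4 lower, Slc12a1, Umod, Ppp1r1a and the calcium receptor Casr, and 0 higher. Cldn10, which is also a thick limb marker, was not called in either set. In tAL 3 to 6, 8, 12, 10 and 8 of the 16 thick limb markers were at 1 RPKM or more. The number was 2, 2 and 5 in tAL 1, 2 and 7, and 10 to 14 in the mTAL libraries.

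Thin ascending limb markers were higher than in mTAL in 7 of 11 (median 3.67), and in 9 of 11 without tAL 1, 2 and 7, a set that some of these markers chose. S100a6, a calcium-binding protein, was the called gene with the largest rise among those without overlap, from 906 to 2793 RPKM in tAL and from 0.117 to 198 RPKM in mTAL (change 6.95, adjusted p = 3.2e-05). Clu ran from 0.0987 to 107 RPKM in mTAL, below every tAL library (change 6.56, adjusted p = 0.00012). The splicing factor Hnrnph1 was at 241 to 765 RPKM in tAL, with a change of 6.18 (adjusted p = 0.00019). Immediate early and heat shock genes were higher in 8 of 25 and lower in 0 (median 2.41), and higher in 9 without tAL 1, 2 and 7. Oxidative phosphorylation genes were lower in 6 of 26 and higher in 0 (median -1.82), which became 12 of 26 under quantile normalization.

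IMCD is the other tubule of the inner medulla. Here 161 genes were higher (1.45%) and 415 lower (3.75%), with a median over all genes of -0.24, and 180 (1.63%) and 256 (2.32%) without tAL 1, 2 and 7. The split changed with the scaling: 320 higher and 288 lower under quantile normalization, which moved the median to 0.00, and 340 of each with detected genes as a covariate. Aqp2 was at 1972 to 15830 RPKM in IMCD against at most 23.2 RPKM in tAL (change -10.82, adjusted p = 5e-14). Gpx2, a glutathione peroxidase, was at 338 to 1996 RPKM in IMCD and at most 1.67 RPKM in tAL, and Guca2a, guanylin, at 117 to 1018 RPKM and at most 0.577 RPKM. Principal cell markers were lower in 6 of 11 (median -5.38), in all 3 scalings and in both sets of libraries.

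Osmolyte and immediate early genes were also counted against IMCD, where 1.45% of all tested genes were higher and 3.75% lower. Against LDLIM these shares were 0.117% and 0.641%. Akr1b1 was at 469 to 15727 RPKM in IMCD, and its change of -1.24 was not called (adjusted p = 0.73). Of the 14 osmotic response genes 0 were higher and 2 lower (Sgk1 and Hspa4l), with a median of -0.14, and without tAL 1, 2 and 7 Serpinh1 was also higher and the median was 0.51. Immediate early and heat shock genes showed 2 higher (Klf2 and Klf4) and 2 lower (Fosl2 and Hsph1) of 25 against IMCD, with a median of -0.11, and 0 higher and 1 lower against LDLIM, with a median of -1.22. The counts without tAL 1, 2 and 7 were 2 higher (Fosb and Klf4) and 0 lower against IMCD, with a median of 0.75, and 0 in both directions against LDLIM, with a median of -0.22. LDLIM and IMCD lie in the inner medulla, the zone with the longest digestion. Zone and digestion time cannot be told apart in these libraries, and the part of either was not tested. Clu was higher than in IMCD (0 to 54.6 RPKM) by 6.31 (adjusted p = 4.6e-05). The sodium-proton exchanger Slc9a3 was higher by 3.54 (adjusted p = 0.0078), but tAL 6 held 436 RPKM of it, and without that library the adjusted p was 0.076. Of 17 glycolysis genes 4 were lower, Pgk1, Pkm, Ldha and the lactate carrier Slc16a3, and 0 higher (median -1.41).

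**Figure D4:**
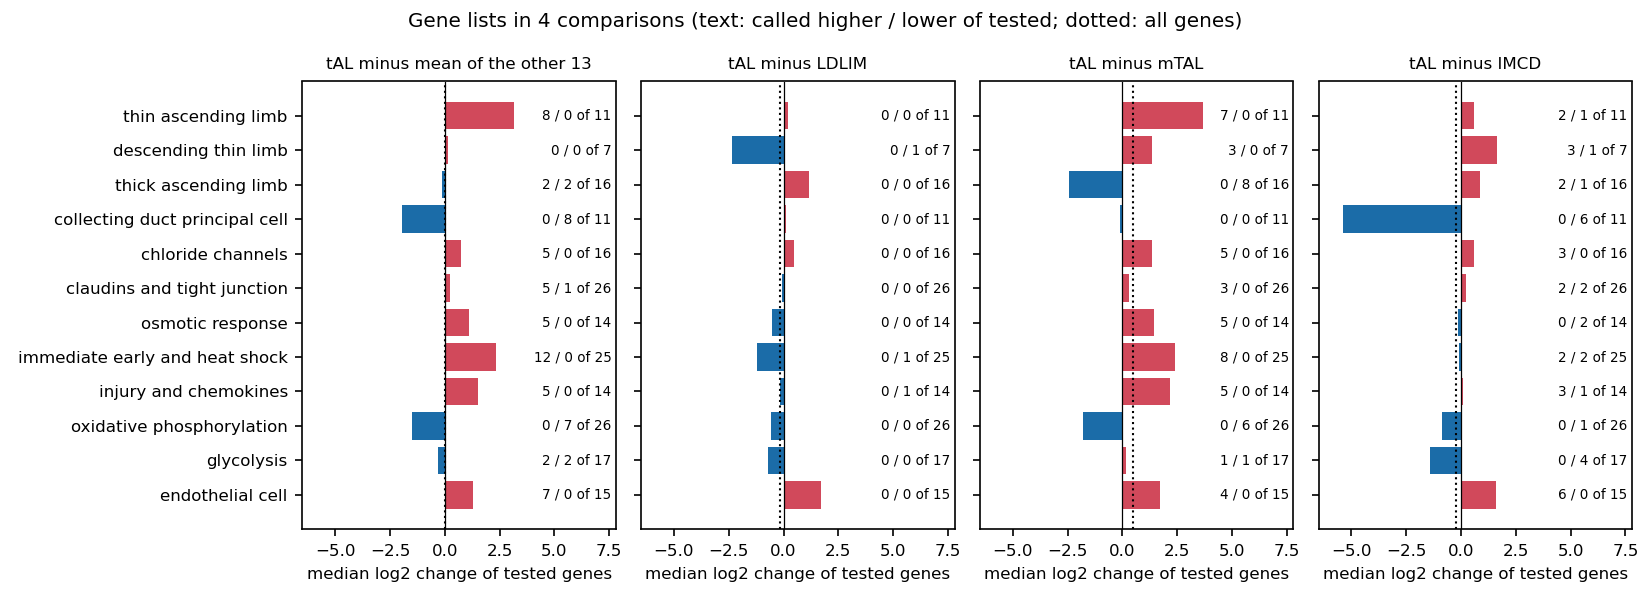
Median log2 change of the tested genes of 12 lists (bars) in the 4 comparisons with all 7 libraries; the dotted line is the median of all genes, and the figures at the right of each panel give genes called higher, called lower and tested. Immediate early and heat shock genes have a median of 2.33 against the mean of the other 13 segments and 2.41 against mTAL, and -1.22 and -0.11 against LDLIM and IMCD.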

How the data were processed

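The authors deposited RPKM per RefSeq transcript in a table made with polyadenylation-site data, which was used, and in a second table made without them. The submitters' processing notes list STAR 2.3.0-r192, Trimmomatic 0.32, HOMER, SAMtools and the build rn5. No settings for these, nor how polyadenylation-site data entered, are given by the labels. The labels' protocols describe a single-cell RNA-seq method with 50 nucleotides read from each end, and such low-input libraries can leave a transcript at 0 in a piece that holds it.

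Of 17974 entries, the transcript with the highest mean stood for each of 17144 symbols. Tests used log2(RPKM + 1) and genes at 1 RPKM or more in 4 or more libraries. All tubule libraries entered 1 fit with 14 groups in limma 3.58.1 (trended, two-sided; R 4.3.3), with Benjamini-Hochberg adjustment over all genes. The pool is the unweighted mean of the other 13 segment means. A selective gene had 13 changes of at least 1, with the least significant p under 0.05 after adjustment. The fit was also run on simulated data, with normal noise of the same size in all segments. Those data hold no tAL libraries of differing cell content, so the run could not check for it. Tables and plots used Python 3.11.15 with matplotlib 3.10.9, pandas 2.3.3 and numpy 2.4.6.

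The members and the 23 gene lists (426 memberships, 410 in the table) were chosen with earlier results of these data known. Genes named against the pool were the 15 called genes with the largest rise and the 10 with the largest fall among those with at least 6 of 7 libraries on that side of the median of the others. Against single segments they were up to 5 per direction among called genes without overlap. Selective genes, Cldn4 and list members were added, and the text gives a part of all these. The glomerulus and water-load libraries were not used here. Promoter windows are from RefSeq (GRCr8).

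Alternatives changed 1 choice each: the pseudocount (0.1), the filter (none), quantile scaling, the table (the second), a block for replicate number, a covariate for detected genes, leaving out 14 libraries under 2500 genes, the mean over transcripts, single replicates left out, 98 libraries as 1 group, and 2 segments fitted alone. Leaving out tAL 1, 2 and 7, or 1 and 2, was added after seeing the data. Some results are not reported here.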

Additional observations from a re-analysis of the deposited data

Results flagged for a closer look

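In 57 sets of values, 1 per gene and 1 for the number of detected genes, the 7 thin ascending limb libraries were searched for a single library far from the rest, by the gap to its neighbour relative to the range of log2 values (critical value 0.568). Such a search flags about 1 in 20 groups of independent, normally distributed values, and 12 were found here. These genes share the same libraries and some lie near 0. Many were chosen because at least 6 of 7 libraries lay on 1 side. The 12 can therefore not be set against that rate. tAL 7 was the lowest for Akr1b1 (4.67 RPKM), Capg (0.0771 RPKM), Esam (38.7 RPKM) and Gadd45b (0.558 RPKM), and the highest for Ly6i (75.0 RPKM). tAL 5 was the highest for Dcxr (8.76 RPKM), Kap (5.30 RPKM) and Pspc1 (6.02 RPKM). tAL 3 was the lowest for Klf4 (0.572 RPKM) and Tinagl1 (1.99 RPKM), and the highest for Guca2a (0.577 RPKM) and Ly6al (0.644 RPKM). tAL 7 is also the library with Bsnd at 0.482 RPKM and Aqp1 at 5272 RPKM. Its part in these values was not tested.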

How the results depend on the processing

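Over 150 gene changes and their alternatives (2768 values), 3 reversed, 2544 kept their side of the threshold, 162 lost the call and 59 gained one. The reversals were Tek against the pool, at -0.11 without tAL 1, 2 and 7 and -0.14 without tAL 1 and 2, and Atp1b1, at 0.17 without tAL 1 and 2. The median of the endothelial list turned from 1.28 to -0.14 without tAL 1, 2 and 7. Tek and other genes of that list had set tAL 1 and 2 apart, so their moves are a description and no test. The count of 758 genes against the pool became 440 (366 higher, 74 lower) with the 98 libraries as 1 group, 476 without tAL 1, 2 and 7 and 502 without tAL 1 and 2. Leaving out single tAL libraries gave 526 to 831 against the pool, 71 to 137 against LDLIM, 510 to 957 against mTAL, 463 to 643 against IMCD, and 0 to 6 selective genes. Leaving out single LDLIM libraries gave 53 to 188. With both segments fitted alone, 84 became 2 against LDLIM, 702 became 154 against mTAL and 576 became 151 against IMCD, with fewer libraries and genes. Against LDLIM the split of 13 higher and 71 lower was 30 and 45 under quantile normalization and 35 and 59 with the covariate. The 3 selective genes became 0 at a pseudocount of 0.1, 1 without a filter, 8 under quantile normalization, 1 with the replicate block, 0 without libraries under 2500 genes (which leaves out tAL 6), 15 without tAL 1, 2 and 7 and 6 without tAL 1 and 2. The cause of these moves was not tested. Residual correlations of same-numbered libraries with tAL had medians of -0.04 to 0.01 by segment, and the highest in IMCD was 0.15. Differently numbered libraries were not compared, so whether the numbers pair libraries was not settled. With the replicate block the counts were 769, 117, 756 and 617 against the pool, LDLIM, mTAL and IMCD. RPKM values give no depth, so for a gene at or near 0, absence and a level too low to detect cannot be told apart.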
